A study of Sus scrofa with 31 samples.

Results

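CD2, CD8A, NLRC3, PVRIG, CD79B, FCMR, CD3E and CD3D are genes of T cells, NK cells and B cells that had higher counts in sorted pig alveolar macrophages than in sorted pig microglia. They are 8 of the 31907 genes counted. The genes were named beforehand as lymphoid genes among those higher in alveolar macrophages, so the members were chosen by their counts in macrophages against microglia, and that difference is described here without a test. The question was whether the 8 genes rise and fall together over the macrophage and microglia samples. RNA came from 31 samples of 15 piglets, 9 of which gave more than 1 sample. There were 3 samples of alveolar macrophages, 8 each of microglia from the cerebellum, frontal cortex and hippocampus, and 4 of whole hippocampal tissue. Samples of a group came from different piglets. The piglets were commercial crossbred males in the fourth week of life, 1 from each litter, born in standard or in less restrictive housing and anaesthetised for imaging before they were killed. Microglia were sorted from dissociated brain as cells with high CD11b and low CD45. Macrophages were sorted from lung lavage for F4/80, the product of ADGRE1, with low CD163, and neither gate excluded lymphocytes by a marker of their own. The gene counts of a sample summed to 18438494 at the least and 43477403 at the most (median 29243994). Levels are given as counts scaled to a common library size (CPM), on which 3 counts, the floor used here, are 0.0656 to 0.150. Floors cover counting error only, since copies of 1 molecule are counted separately.

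T cells recognise antigen through a receptor whose signal is carried into the cell by the CD3 chains, with the help of coreceptors such as CD8 and of adhesion molecules such as CD2. B cells signal through the immunoglobulin-bound pair CD79A and CD79B and bind free IgM through FCMR. Lung lavage holds mostly macrophages in health, with some lymphocytes, and the healthy brain parenchyma holds few lymphocytes. In pooled RNA, fewer cells of a type and less RNA per cell cannot be told apart.

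The CD3 chain genes stand side by side on chromosome 9 of Sscrofa11.1. CD3E lies at chr9:45619730-45633972 on the forward strand and CD3D at chr9:45640475-45644153 on the reverse strand, with 6502 bases between their ends. CD79B lies at chr12:15052966-15056441 on the forward strand. The 200 bases upstream are shown for CD3E, as a T cell gene that was high in the macrophages, and for CD79B, as the B cell gene that had 0 counts in every microglia sample. They were read 5′ to 3′ on the strand of each gene from Sscrofa11.1 with the starts of RefSeq. Capitals mark matches on either strand to the letters of known binding motifs (E-box CAGGTG, ETS AGGAAGT, octamer ATTTGCAT, RUNX TGTGGT, AP-1 TGACTCA and the palindromic motif of EBF1).
CD3E, chr9:45619530-45619729, forward strand: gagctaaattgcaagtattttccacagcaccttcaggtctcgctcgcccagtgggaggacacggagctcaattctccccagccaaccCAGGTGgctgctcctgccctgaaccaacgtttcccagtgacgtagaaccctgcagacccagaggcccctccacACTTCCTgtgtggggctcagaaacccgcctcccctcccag
CD79B, chr12:15052766-15052965, forward strand: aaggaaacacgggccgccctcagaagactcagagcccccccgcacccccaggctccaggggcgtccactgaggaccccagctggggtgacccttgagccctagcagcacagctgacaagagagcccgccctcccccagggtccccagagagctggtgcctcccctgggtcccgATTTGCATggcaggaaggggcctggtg
The CD3E stretch held 1 E-box and 1 ETS match, the latter on the opposite strand, and the CD79B stretch held 1 octamer. Of the upstream stretches of 19556 genes, 15.8% held the E-box letters, 4.35% the ETS letters and 1.03% the octamer letters. PVRIG and FCMR each held 1 match to the RUNX letters, which 11.6% of the stretches did. The AP-1 letters were in 2.34% and the EBF1 letters in 0.793% of the stretches, and in neither stretch shown.

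The CD3 genes were high in every alveolar macrophage sample and at or near 0 in most brain samples. CD3E, the epsilon chain, had 223 CPM in the macrophages of pig 12821, 370 in those of pig 12829 and 138 in those of pig 12984 (244 ± 117 CPM, SD, n = 3). In cerebellar microglia CD3E ranged from 0 to 1.66 CPM (median 0.103, n = 8), in frontal cortex microglia from 0 to 5.23 CPM (median 0.474, n = 8) and in hippocampal microglia from 0 to 0.160 CPM (median 0, n = 8). Hippocampal tissue had 0.0922 to 0.252 CPM (n = 4), which is 3 to 8 counts. CD3D, the delta chain, had 181, 192 and 106 CPM in the macrophages of pigs 12821, 12829 and 12984 (160 ± 46.7 CPM, SD, n = 3). Cerebellar microglia had 0 to 3.66 CPM of CD3D (median 0.618), frontal cortex microglia 0.122 to 5.58 CPM (median 2.14) and hippocampal microglia 0 to 0.131 CPM (median 0), while tissue had 0 to 0.378 CPM. All 8 hippocampal microglia samples had at most 3 counts of CD3D, so the macrophage mean was at least 1468-fold higher than there. It was 69.5-fold higher than in frontal cortex microglia.

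CD2 was the only one of the 8 genes with substantial counts in every microglia sample. CD2, an adhesion and costimulation receptor of T cells and NK cells (chr4:103963802-103976971, reverse strand), had 313, 432 and 260 CPM in the macrophages of pigs 12821, 12829 and 12984 (335 ± 87.9 CPM, SD, n = 3). Cerebellar microglia had 14.3 to 39.2 CPM of CD2 (median 32.4), frontal cortex microglia 12.2 to 45.4 CPM (median 22.2) and hippocampal microglia 26.1 to 72.4 CPM (median 44.6), while tissue had 1.01 to 1.64 CPM. The 24 microglia samples lay above all tissue samples and below all macrophage samples, with a macrophage mean 10.2-fold that of the microglia. CD8A, the alpha chain of the CD8 coreceptor (chr3:57999228-58029768, forward strand), had 88.8, 117 and 38.1 CPM in the macrophages of pigs 12821, 12829 and 12984 (81.3 ± 40.0 CPM, SD, n = 3). Cerebellar microglia had 0 to 1.85 CPM of CD8A (median 1.04), frontal cortex microglia 0.360 to 8.02 CPM (median 1.74) and hippocampal microglia 0 to 1.04 CPM (median 0.545), while tissue had 0.188 to 0.473 CPM. The macrophage mean of CD8A was 60.9-fold that of the microglia, and no microglia sample reached the lowest macrophage sample.

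The regulatory receptors were present in all 3 macrophage samples and sparse in the brain. PVRIG, an inhibitory receptor of T cells and NK cells (chr3:8230311-8232840, forward strand), had 64.8, 117 and 36.6 CPM in the macrophages of pigs 12821, 12829 and 12984 (72.9 ± 41.0 CPM, SD, n = 3). It had 0 counts in 20 of the 24 microglia samples, and only the frontal cortex microglia of pig 12758 (66 counts) and pig 12720 (32 counts) exceeded 3 counts. NLRC3, a regulator that restrains immune signalling in T cells and myeloid cells (chr3:38673590-38719188, forward strand), was the most even member in the macrophages, at 170, 159 and 145 CPM in pigs 12821, 12829 and 12984 (158 ± 12.3 CPM, SD, n = 3). Cerebellar microglia had 0 to 2.99 CPM of NLRC3 (median 0.970), frontal cortex microglia 0 to 1.82 CPM (median 0.867) and hippocampal microglia 0 to 0.704 CPM (median 0.304). Hippocampal tissue, at 1.51 to 2.74 CPM, lay above all hippocampal microglia samples for NLRC3. Exons of NLRC3 share 1962 bases with CLUAP1 on the opposite strand. CLUAP1 had 51.9 ± 0.615 CPM in tissue (SD, n = 4), 36.3 ± 5.27 CPM in macrophages (SD, n = 3) and 15.6 ± 2.53 CPM in the hippocampal microglia (SD, n = 8). Whether counting used the strand is not given in the sources used here, so reads of the shared bases cannot be assigned, and their part in the NLRC3 values was not tested.

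CD79B and FCMR, the B cell genes among the 8, were at 0 counts in most microglia samples, as PVRIG was. Other B cell genes varied there. CD79A, the partner of CD79B, averaged 71.8 CPM and BLNK 201 CPM over the 24 microglia samples, while BANK1 averaged 2.98 CPM and PAX5 0.548 CPM. CD79B, a signalling chain of the B cell receptor, had 94.6, 55.1 and 39.1 CPM in the macrophages of pigs 12821, 12829 and 12984 (62.9 ± 28.6 CPM, SD, n = 3), 0 counts in each of the 24 microglia samples and 0 to 5 counts in tissue. The macrophage mean was at least 554-fold higher than the microglia. FCMR, the Fc receptor for IgM (chr9:67530944-67546441, reverse strand), had 109, 82.8 and 68.1 CPM in the macrophages of pigs 12821, 12829 and 12984 (86.7 ± 20.8 CPM, SD, n = 3). It had 0 counts in 18 of the 24 microglia samples and no more than 10 in any. FCMR shares 1464 exon bases with IL24 on the opposite strand, and IL24 had 0.753 ± 0.320 CPM (SD, n = 3) in macrophages and 0 counts in all microglia.

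**Figure D1:**
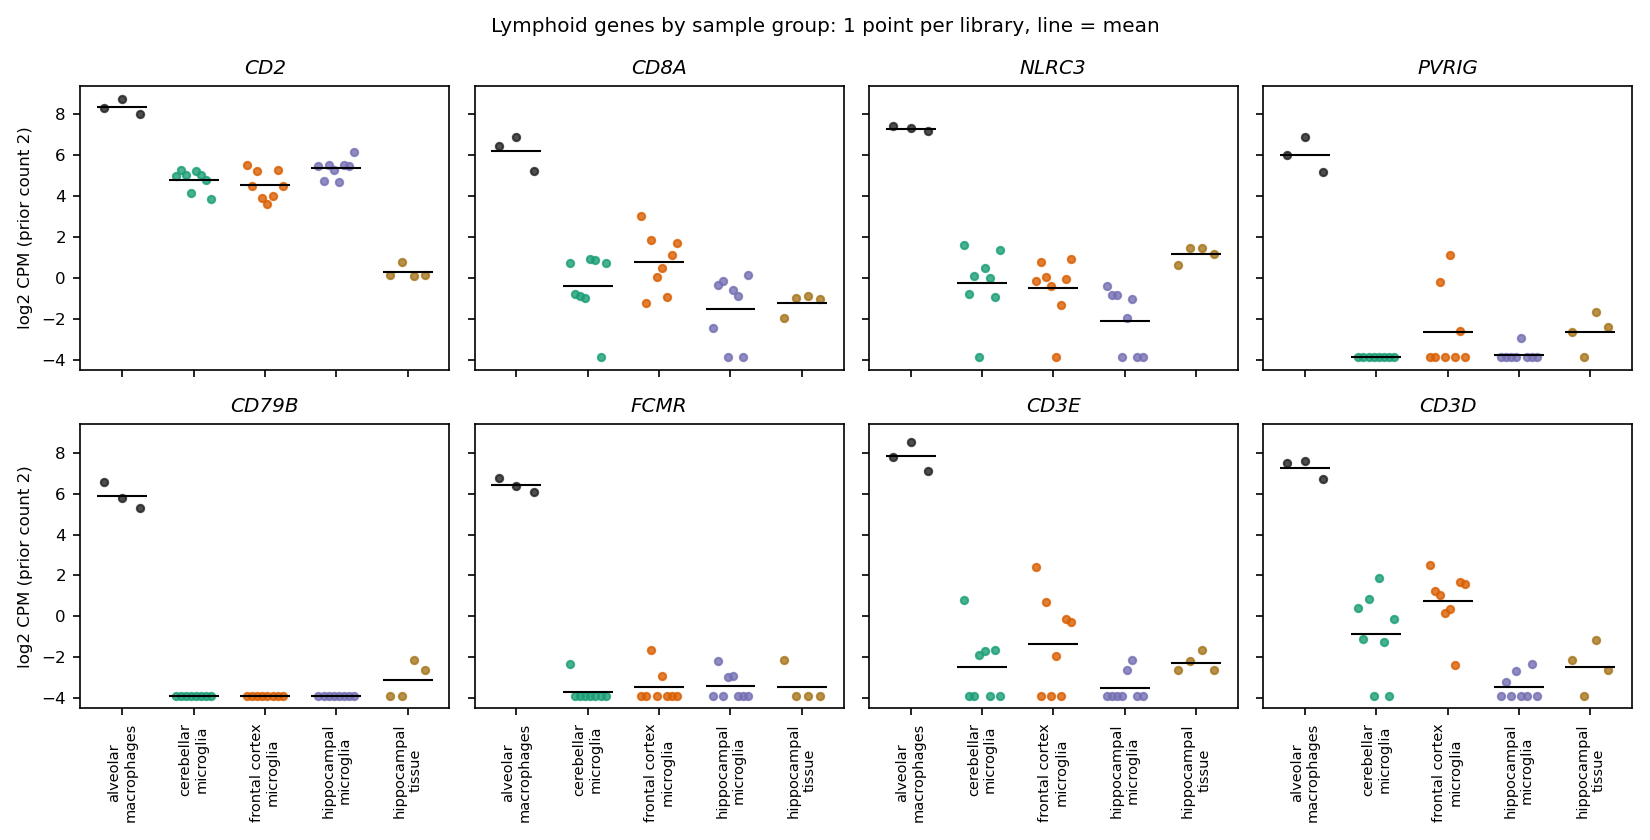
Each point is 1 library, placed by its log2 CPM with a prior count of 2 (vertical axis) in each of the 5 sample groups (horizontal axis), 1 panel per gene, and the line is the group mean. All 3 alveolar macrophage points lie above all 24 microglia points in all 8 panels, and CD2 alone has a second level, near 5, in the microglia.

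For all 8 genes every macrophage sample was above every microglia sample, which also held for 17.3% of the 11633 genes tested and follows from how the 8 were chosen. All 8 were tested, since they passed the filter of over 10 CPM in all samples of a group. Of the 8, 7 passed it through the macrophages alone and CD2 also through the microglia. Per kilobase of RefSeq exon, the macrophage levels ran from CD2 (327 ± 85.9 CPM per kb, SD, n = 3) through CD3D (210 ± 61.5) and CD3E (198 ± 95.2) to CD79B (40.5 ± 18.4), PVRIG (34.1 ± 19.2), FCMR (25.3 ± 6.07), CD8A (8.81 ± 4.34) and NLRC3 (7.73 ± 0.603). In that order CD3D and CD3E differed by less than their spread, as did CD79B, PVRIG and FCMR, and CD8A and NLRC3. The lengths join all RefSeq exons of a gene, at 20.5 kb for NLRC3, 9.23 kb for CD8A and 0.759 kb for CD3D, while the counts are on Ensembl genes. The order therefore depends on the annotated length and does not rank the transcripts themselves.

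Within the macrophages, the T cell genes and the B cell genes did not peak in the same sample. All 8 genes were lowest in pig 12984, where 36.1% of all tested genes were lowest, and none was lowest in pig 12821 (33.8%) or pig 12829 (30.1%). CD2, CD8A, PVRIG, CD3E and CD3D were highest in pig 12829 (32.3% of all tested genes), and NLRC3, CD79B and FCMR were highest in pig 12821 (30.3%), and none was highest in pig 12984 (37.4%). The ratio of the highest to the lowest sample was 1.17 for NLRC3, 1.60 for FCMR, 1.66 for CD2, 1.81 for CD3D, 2.42 for CD79B, 2.68 for CD3E, 3.08 for CD8A and 3.21 for PVRIG. With 3 samples no correlation can be tested, and these orders are given as they are.

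Other genes of the same cell types, which are not among the 8, peaked in the same samples by list, while their lowest sample varied. Of 24 further T cell genes, 22 were highest in pig 12829 and 16 lowest in pig 12984. Their summed level was 1834, 2491 and 1450 CPM in pigs 12821, 12829 and 12984. TRAC, the constant region of the T cell receptor alpha chain, followed with 201, 339 and 83.3 CPM in the same order of pigs, and the T cell kinase gene ZAP70 had 207, 241 and 157 CPM. Of 20 cytotoxic and NK cell genes, 14 were highest in pig 12829, 10 were lowest in pig 12821 and 9 in pig 12984. Those highest in pig 12829 included IL2RB (539, 765 and 430 CPM), a receptor for IL-2 and IL-15, the chemokine gene CCL5 (250, 402 and 129 CPM) and the perforin gene PRF1 (90.8, 96.3 and 95.9 CPM). Of 18 B cell genes, 15 were highest in pig 12821, 9 were lowest in pig 12829 and 9 in pig 12984, and their sum was lowest in pig 12829 (791 CPM). Among them CD79A had 235, 198 and 194 CPM, with 148, 80.7 and 99.2 CPM for the B cell factor PAX5, and 135, 81.0 and 113 CPM for the adaptor BANK1. All 8 plasma cell genes were highest in pig 12821 and lowest in pig 12984. JCHAIN, which joins IgA and IgM chains, had 2281 CPM in pig 12821, 565 in pig 12829 and 417 in pig 12984, and XBP1 and IRF4, transcription factors that plasma cells depend on, had 454, 132 and 125 CPM, and 433, 128 and 111 CPM.

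The summed markers of alveolar macrophages, border macrophages and neutrophils were highest in the macrophages of pig 12984, where the 8 genes were lowest. Those of microglia (217, 392 and 381 CPM in pigs 12821, 12829 and 12984) and of mast cells were highest in pig 12829. A list of 9 markers of alveolar macrophages summed to 402 and 427 CPM in pigs 12821 and 12829 and to 776 CPM in pig 12984, led by MRC1, ADGRE1 and CD68. A list of 5 border macrophage markers, MRC1 among them too, summed to 630, 611 and 1069 CPM, and 7 neutrophil markers to 402, 568 and 874 CPM in the same order. Of the detected genes of these lists, 5 of 7, 3 of 4 and 6 of 7 were highest in pig 12984. MSR1 was lowest there (7.73, 11.7 and 6.43 CPM), SIGLEC1 was highest in pig 12821, and F13A1 and CSF3R were highest in pig 12829. The part of these levels in the order of the lymphoid genes was not tested. The labelled cell type had ADGRE1 at 95.9 ± 43.9 CPM and MRC1 at 268 ± 71.6 CPM (SD, n = 3), while MARCO and FABP4, which mark alveolar macrophages in other species, had 0 counts in all 3 samples and LPL at most 334 counts. The 3 mast cell markers summed to 32.0, 145 and 90.9 CPM in that order of pigs, and over the 3 samples 4 dendritic cell markers summed to 48.5 to 69.3 CPM, 7 epithelial markers to 64.5 to 139 CPM and 4 endothelial markers to 29.4 to 45.1 CPM in the macrophages.

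**Figure D2:**
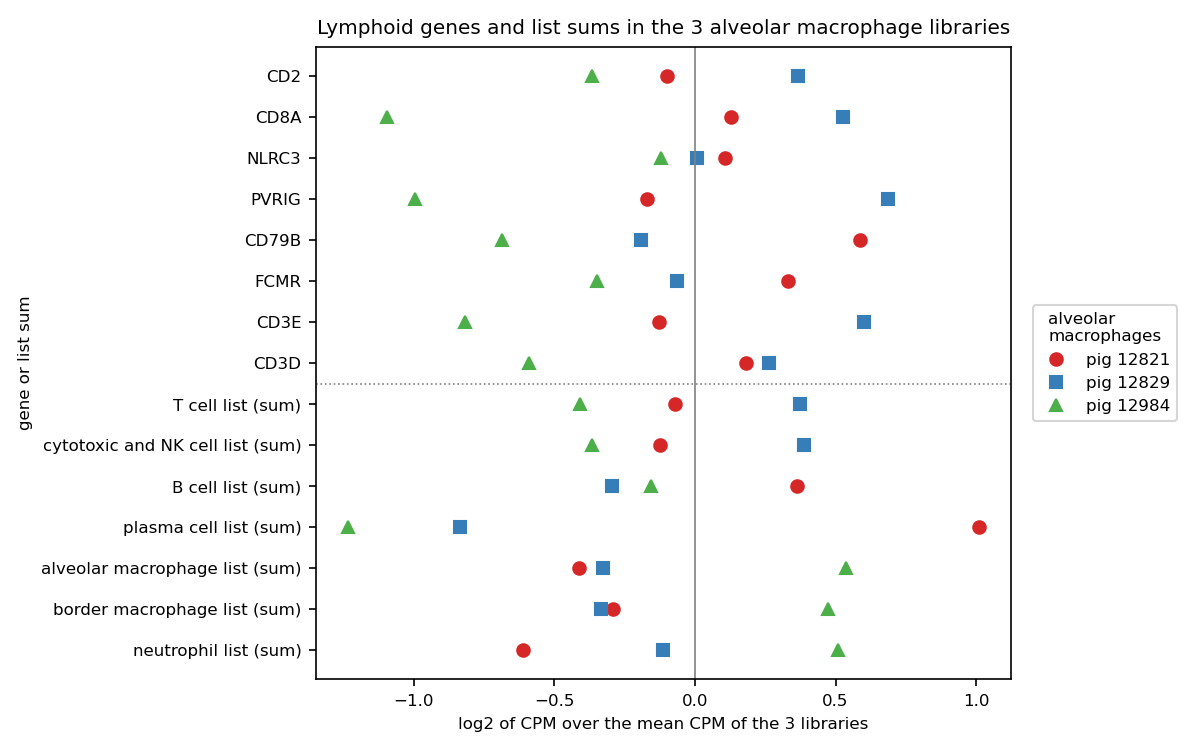
Each row is a lymphoid gene or the summed CPM of a marker list, and the horizontal axis is the log2 of its CPM in 1 macrophage library over the mean of the 3 libraries, with 1 symbol per pig. Pig 12984 is lowest for all 8 genes and highest for the alveolar macrophage, border macrophage and neutrophil lists, while the B cell and plasma cell sums peak in pig 12821.

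Between the macrophages and the microglia, most other lymphoid genes were higher in the macrophages. These genes are not among the 8 and were tested, although the lists were drawn up with earlier results known. In edgeR's quasi-likelihood fit, with thresholds of 0.01 for the adjusted p and 3 for the fold, 10.1% of tested genes were higher and 12.2% lower in macrophages. Of the 24 T cell genes 23 were tested and all 23 were higher, with a median log2 fold change of 8.64 beside -0.06 over all tested genes. Of 20 cytotoxic and NK cell genes 13 were tested and 12 were higher (median 6.04), the exception being PRF1, whose mean was 94.3 ± 3.11 CPM in macrophages (SD, n = 3) against 114 ± 33.3 CPM for microglia (SD, n = 24). Of 18 B cell genes 15 were tested, 10 were higher and 1, the signalling adaptor BLNK, which microglia express, was lower (median 6.24). Of 8 plasma cell genes 7 were tested and 4 were higher (median 3.80). The tested genes passed the filter mostly through the macrophages, which favours higher calls. With no filter, 24 of 24, 19 of 20, 13 of 18 and 6 of 8 genes of the 4 lists were higher, beside 3035 of 30192 genes. With a replicate block for pig, 15 T cell, 5 cytotoxic and NK cell, 6 B cell and 7 plasma cell genes were higher in edgeR, and 23, 12, 11 and 4 in limma-voom. Pig 12984 gave no microglia, so the blocked edgeR fit, with pig as a fixed term, rests on the macrophages of the other 2 pigs. Over all 11633 tested genes, 911 were higher with the block in edgeR and 1407 in limma-voom. Without the macrophages of pig 12984, 7 plasma cell genes were higher.

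Against whole hippocampal tissue, which took no part in choosing the genes, 1 of the 8 was higher in hippocampal microglia, 1 was lower and 6 were not past the thresholds, set at 0.01 for the adjusted p and at 4 for the fold. Over all tested genes 11.7% were higher and 22.1% lower. CD2 averaged 43.1 ± 14.5 CPM in microglia (SD, n = 8) and 1.18 ± 0.305 CPM in tissue (SD, n = 4), and was higher by 5.18 on the log2 scale (SE 0.43, adjusted p = 1.07e-11 in edgeR). NLRC3 was lower, with -2.98 on that scale (SE 0.83, adjusted p = 0.00202 in edgeR). Between the groups, the samples of CD2 and NLRC3 did not overlap, as was so for 69.3% of tested genes in either direction. With a replicate block for pig the NLRC3 call was lost in edgeR (-3.07 on the log2 scale, adjusted p = 0.0184) and held in limma-voom (-3.86 on the log2 scale, adjusted p = 0.00128). The remaining log2 fold changes in edgeR were -3.96 for CD79B (SE 1.22, adjusted p = 0.0177), -3.22 for PVRIG (SE 1.56, adjusted p = 0.0647), -2.16 for CD3D (SE 1.23, adjusted p = 0.112) and -1.94 for CD3E (SE 1.61, adjusted p = 0.274). CD8A had 0.30 (SE 0.93, adjusted p = 0.773) and FCMR -0.13 (SE 1.27, adjusted p = 0.932), both with other signs in limma-voom. These 6 genes had at most 28 counts in any sample of either group, so differences between the groups were hardly detectable at this depth. CD79B passed the thresholds without the tissue of pig 12821 (adjusted p = 0.00994) or of pig 12829 (adjusted p = 0.00942 in edgeR).

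The CD2 level thus parted from that of the CD3 genes in the brain samples. For each count of CD3D and CD3E together there were 0.769 to 1.06 counts of CD2 in the macrophages, 9.77 to 112 in cerebellar microglia and 4.20 to 132.5 in frontal cortex microglia. Summed over the 8 hippocampal microglia samples, 9571 counts of CD2 stood beside 15 of CD3D and CD3E, and over the 4 tissue samples 154 beside 39.

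Of the other T cell genes tested, 1 was higher and 9 were lower in hippocampal microglia than in tissue, with a median log2 fold change of -2.96 beside -0.08 over all tested genes. Over all tested genes 11.7% were higher and 22.1% lower. Of the 24 T cell genes, 12 had at most 3 counts in every hippocampal microglia sample, so these calls and the median rest in part on few counts. ZAP70 was among the lower genes (-4.68 on the log2 scale, SE 1.31, adjusted p = 0.00211 in edgeR), at 0.0117 CPM in hippocampal microglia and 0.445 CPM in tissue on average. BCL11B and LEF1, which neurons and other brain cells also express, were lower too. The higher gene was SKAP1, an adaptor of T cell signalling, which lost its call without the tissue of pig 12829. SKAP1, BCL11B and LEF1 were named after their values were seen. Of the cytotoxic and NK cell genes tested, 2 were higher, PRF1 and SH2D1B, and 0 were lower, and 1 was lower without the hippocampal microglia of pig 12821. Of the 15 B cell genes tested 4 were higher and 3 lower, and of the 7 plasma cell genes tested 1 was higher and 1 lower, beside the same shares over all tested genes.

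Across the 3 microglia regions, 1 of the 8 genes, CD3D, differed at an adjusted p under 0.01, beside 2.03% of tested genes. CD3D had 2.30 ± 1.67 CPM in frontal cortex, 1.04 ± 1.23 CPM in cerebellar and 0.0324 ± 0.0511 CPM in hippocampal microglia (SD, n = 8 each), and its F test gave an adjusted p of 0.00133 in edgeR. The frontal cortex mean was at least 21.1-fold and the cerebellar mean at least 9.52-fold that of the hippocampus, where all 8 samples were at or under the floor. The fitted log2 fold change was 6.003 for frontal cortex over hippocampus (SE 0.99, adjusted p = 0.00172 in edgeR) and 4.87 for cerebellum over hippocampus (SE 0.99, adjusted p = 0.00725 in edgeR). Frontal cortex over hippocampus, in that direction, called 0.189% of tested genes and cerebellum over hippocampus 0.438%. Of the 8 genes 0 were called lower in either comparison in edgeR, beside 0.129% and 0.163% of tested genes, with 1 (CD2) lower at an unadjusted p under 0.05. Between cerebellum and frontal cortex 0 were called in edgeR, beside 0.894% higher and 0.971% lower of all tested genes, with 1 (PVRIG) at an unadjusted p under 0.05. The region call for CD3D was lost with a replicate block for pig (adjusted p = 0.168 in edgeR and 0.0239 in limma-voom), as were those of the pairs, with fold changes of like size in edgeR. Frontal cortex over hippocampus was then 6.35 on the log2 scale in edgeR (adjusted p = 0.379) and 5.51 in limma-voom (adjusted p = 0.0413), and cerebellum over hippocampus was 4.46 (adjusted p = 0.324) and 3.40 (adjusted p = 0.227). The blocked edgeR fit called 1 of the 11633 genes between frontal cortex and hippocampus and 0 between cerebellum and hippocampus, where 1327 had an unadjusted p under 0.05. Only 3 pigs gave microglia of both frontal cortex and hippocampus, and 4 of both cerebellum and hippocampus, which limits that fit. In limma-voom without the block the F test was not past the threshold either (adjusted p = 0.0271). The cerebellar difference from the hippocampus also lost its call in 11 of the 24 fits that left out 1 microglia sample. CD3D overlapped between all regions, with 0 counts in the cerebellar microglia of pigs 12758 and 12891 and 4 counts in the frontal cortex microglia of pig 12847, and 0.146% of tested genes had every frontal cortex sample above every hippocampal one.

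The other genes did not pass the F test in edgeR. Adjusted p-values were 0.0122 for PVRIG, 0.0324 for CD3E, 0.0894 for CD8A, 0.117 for CD2, 0.144 for NLRC3 and 0.731 for FCMR, and CD79B, with 0 counts throughout, gave 1. PVRIG passed when the frontal cortex microglia of pig 12599, 12707, 12750, 12847 or 12902 were left out (adjusted p = 0.00824 to 0.00957 in edgeR), and its counts came almost wholly from the frontal cortex microglia of pigs 12758 and 12720. For frontal cortex over hippocampal microglia, the fitted log2 fold change was 4.74 for CD3E (SE 1.22, adjusted p = 0.0358 in edgeR), 2.38 for CD8A (SE 0.77, adjusted p = 0.0782 in edgeR) and -0.72 for CD2 (SE 0.26, adjusted p = 0.107 in edgeR). CD2 thus had its highest mean in hippocampal microglia, and CD3E, CD3D and CD8A had theirs in frontal cortex microglia.

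**Figure D3:**
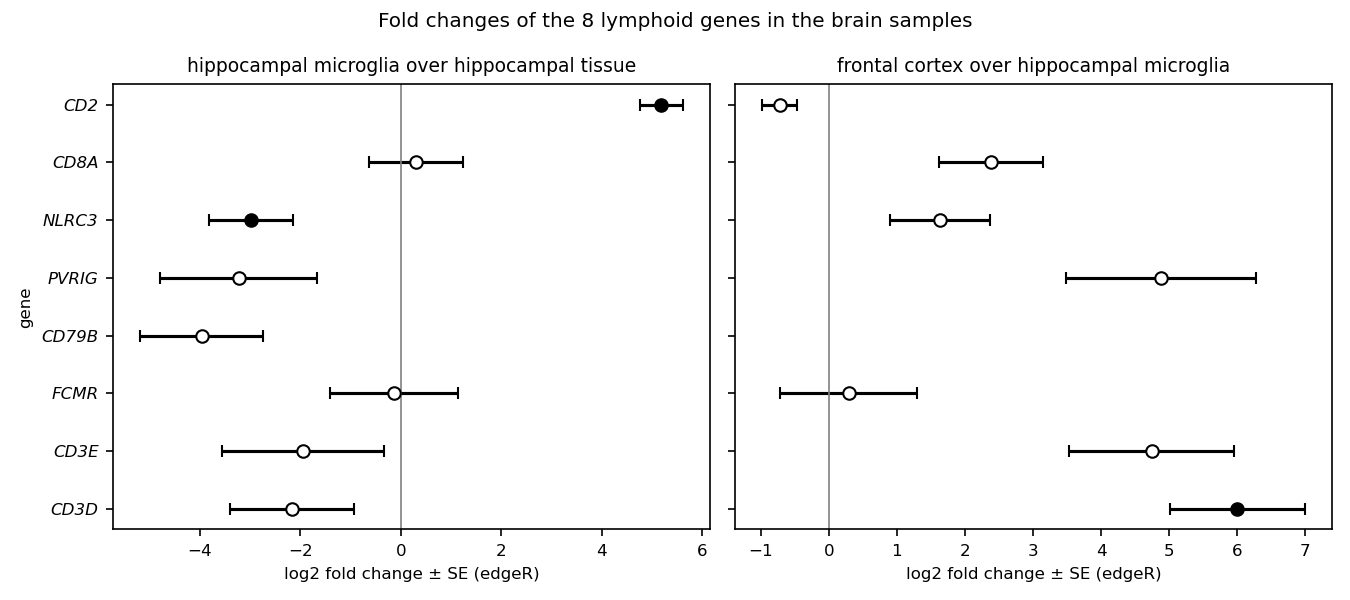
Points are edgeR log2 fold changes with their SE (horizontal axis) for each gene (vertical axis), in hippocampal microglia over hippocampal tissue (left) and in frontal cortex over hippocampal microglia (right), filled where the thresholds were passed. CD2 lies far to the right on the left side and below 0 on the right side, where CD3D is the one filled point, and CD79B, with 0 counts in all microglia, has no point on the right.

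The CD3E counts of microglia lay mostly in the frontal cortex samples of pigs 12599 and 12720. CD3E had 120 counts in pig 12599, 61 in pig 12720 and 0 to 23 in the other frontal cortex samples. CD3D was spread over more of them, with 128 counts in pig 12599, 90 in pig 12902, 82 in pig 12707, 79 in pig 12720 and 66 in pig 12891. It had 4 to 39 counts in the other frontal cortex samples. Pig 12707 had 0 counts of CD3E beside its CD3D counts. CD8A had 184 counts in pig 12599 and 138 in pig 12720. The summed level of the 24 other T cell genes was 62.1 CPM in the frontal cortex microglia of pig 12599, the highest of that region, and 32.9 CPM in those of pig 12720, against 25.5 to 54.9 CPM in the remaining 6. Markers of other brain cells were also high in some of these samples. The oligodendrocyte markers summed to 1850 CPM in the frontal cortex microglia of pig 12599, to 1229 CPM in those of pig 12891, which had the third highest T cell sum, and to 165 to 340 CPM in the other 6. The neuron markers summed to 130 CPM in pig 12599, 72.2 CPM in pig 12891 and 6.94 to 14.3 CPM in the other 6, and the astrocyte markers to 97.9 CPM, 145 CPM and 20.4 to 43.8 CPM. Pigs 12720 and 12902, also with CD3E counts, had oligodendrocyte sums of 315 and 309 CPM. The part of these cells in the T cell values was not tested. Among cerebellar microglia, pig 12821 had the most CD3D (93 counts) and the highest T cell sum (59.5 CPM), while its hippocampal microglia had 0 counts of CD3D and a T cell sum of 16.6 CPM. Without the frontal cortex microglia of pigs 12599 and 12720, an alternative chosen after seeing the data, CD3D kept its F test call (adjusted p = 0.00360 in edgeR) and CD3E had an adjusted p of 0.181.

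Of the 23 other T cell genes tested, 4 differed between regions, beside 2.03% of all tested genes. They were TRAC (adjusted p = 0.00407), ZAP70 (adjusted p = 0.00788), TRAT1 (adjusted p = 0.00644) and UBASH3A (adjusted p = 0.00733 in edgeR). TRAC had 4.40 CPM in frontal cortex, 2.48 in cerebellar and 0.357 in hippocampal microglia on average. TRAT1 and UBASH3A, adaptors of T cell receptor signalling, were named after their values were seen. Of the 13 cytotoxic and NK cell genes tested, 3 differed, CCL5 (adjusted p = 0.00103), IL2RB (adjusted p = 0.00952) and XCL1 (adjusted p = 0.00840 in edgeR), of which XCL1, a chemokine gene, was named after its values were seen. CCL5 had 19.5 CPM in frontal cortex, 7.78 in cerebellar and 1.503 in hippocampal microglia. Of the 15 B cell genes tested 2 differed between regions and of the 7 plasma cell genes 0 (edgeR), beside the same 2.03%. In edgeR with a replicate block for pig no T cell or cytotoxic and NK cell gene was called, beside 85 of 11633 tested genes. Both with and without the block, limma-voom called 0 T cell genes and 4 cytotoxic and NK cell genes, beside 333 and 225 of all tested genes. Leaving out 1 sample gave 0 to 4 T cell and 1 to 5 cytotoxic and NK cell genes.

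Over the microglia, the genes were compared pig by pig. Only CD2, CD8A, NLRC3 and CD3D had more than 3 counts in at least 12 of the 24 samples. Their log2 CPM were centred on each region's mean and averaged per pig, which gave 14 pigs, and 26 relations were computed, 6 of them between these genes. Macrophages were left out of these correlations, since they form a cluster of their own. Pigs 12781, 12817, 12829 and 12872 gave microglia of the hippocampus alone, with at most 3 counts of CD3D. Their CD3D values are therefore at or under the floor, which limits what the relations with CD3D can show. None of the relations passed an adjusted p of 0.05, and the lowest adjusted permutation p was 0.885 for Pearson's r and 0.587 for Spearman's rho. Pearson's r was 0.44 for NLRC3 and CD3D (permutation p = 0.115, Spearman's rho 0.52, permutation p = 0.0562), 0.30 for CD2 and CD8A (permutation p = 0.301, rho 0.32, permutation p = 0.261) and 0.25 for CD8A and NLRC3 (permutation p = 0.380, rho 0.23, permutation p = 0.430). It was 0.16 for CD8A and CD3D (permutation p = 0.579, rho 0.21, permutation p = 0.461), 0.03 for CD2 and CD3D (permutation p = 0.919, rho -0.10, permutation p = 0.739) and -0.01 for CD2 and NLRC3 (permutation p = 0.983, rho -0.04, permutation p = 0.907). Without the 2 pigs farthest from the median, r ranged from -0.16 for CD2 and CD3D to 0.53 for CD8A and CD3D. CD3D against the summed T cell list gave the strongest relation (r = 0.54, permutation p = 0.0446, adjusted permutation p = 0.885). Its rho was 0.51 (permutation p = 0.0678), and r was 0.66 without the 2 farthest pigs. A p that misses the threshold with 14 pigs does not show that the genes vary apart.

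Within regions, with 8 pigs each, the pairs with CD3D were positive in the cerebellum and frontal cortex and negative in the hippocampus. Hippocampal CD3D values were at most 3 counts. CD2 and CD3D had an r of 0.38 in the cerebellum, 0.66 in the frontal cortex and -0.17 in the hippocampus. In the same order CD8A and CD3D had 0.70, 0.69 and -0.79, NLRC3 and CD3D had 0.76, 0.43 and -0.60, and CD2 and NLRC3 had 0.22, 0.58 and -0.35. Against the summed T cell list, CD3D had 0.67, 0.75 and 0.63, and CD8A had 0.58, 0.82 and -0.36. CD2 had 0.48, 0.72 and -0.18 against that list, and NLRC3 had 0.26, 0.48 and -0.19. In none of the regions did a pair of the 4 genes pass an adjusted permutation p of 0.05. Unadjusted, the permutation p was 0.0209 for NLRC3 and CD3D in the cerebellum and 0.0497 for CD8A and CD3D in the frontal cortex. It was 0.0357 for the negative r of CD8A and CD3D in the hippocampus, and above 0.05 for the other pairs. Against the T cell list it was 0.0143 for CD3D, 0.0156 for CD8A and 0.0490 for CD2 in the frontal cortex, and above 0.05 otherwise.

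**Figure D4:**
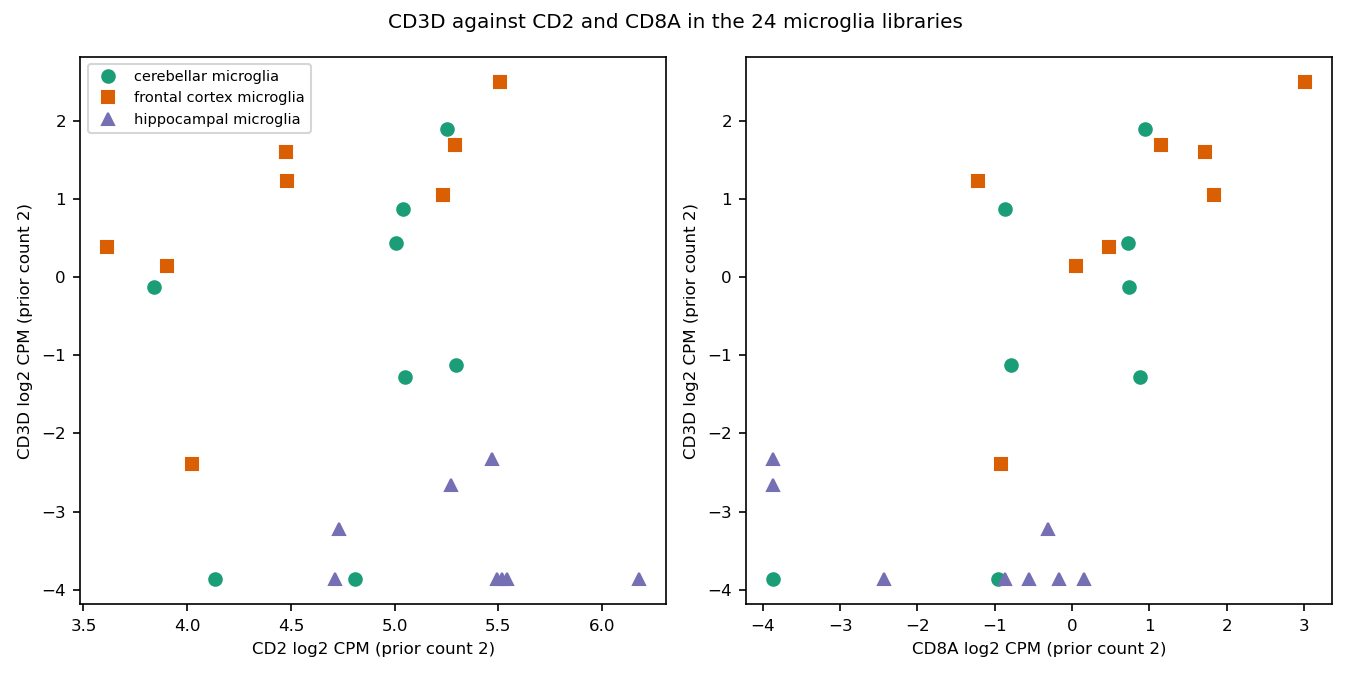
Each symbol is 1 of the 24 microglia libraries, by its log2 CPM with a prior count of 2 for CD2 (left, horizontal axis) or CD8A (right, horizontal axis) and for CD3D (vertical axes), with 1 symbol and colour per region. Hippocampal libraries lie at the bottom of both panels, at 0 to 3 counts of CD3D, and include the library with the most CD2.

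Over all 31 samples, the mean z-score of the 8 genes was compared with every other tested gene that has a symbol, as a description of likeness that rests mainly on the macrophages. The closest were CD6, a T cell receptor of the CD5 family (r = 0.96), the lectin gene CLEC17A (0.95), the activation marker CD69 (0.95), the metal transporter of phagocytes SLC11A1 (0.95) and ADGRE3 (0.95). SLC11A1 and ADGRE3 had 0 counts in all brain samples, and CLEC17A, SLC11A1 and ADGRE3, unlike the 8 genes, were highest in pig 12984 (21.2, 62.5 and 68.4 CPM). Of the 8 genes, 7 had an r of 0.85 to 0.95 with their common mean and CD2 had 0.63. Each gene is part of that mean, and these r follow largely from the gap between macrophages and microglia that chose the genes. They therefore do not answer whether the genes rise and fall together. Over the 24 microglia samples with region means removed, the genes most like CD2 were PIM1 (0.81), EEF2K (0.75), NKD1 (0.74), CLN6 (0.74) and TNFAIP3 (0.73), none of them on the lymphoid lists. These 5 were picked as the highest among all tested genes, so their r cannot be set beside that of genes named beforehand. The r of CD2 was 0.45 with CD3E, 0.40 with CD3D and 0.27 with CD8A. Those 3 genes had at most 3 counts in 14, 10 and 4 of the 24 samples.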

How the data were processed

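RNA libraries of sorted cells and tissue were made with a stranded total RNA kit. The authors trimmed the reads, aligned them to Sscrofa11.1 with HISAT2 and counted them on Ensembl genes with StringTie, and deposited raw counts per gene for 31 samples. How StringTie's coverage was turned into counts, and whether strand was used, is not given in the sources used here.

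Samples were grouped by their labels, and pigs by the 15 tags in the labels, a number that differs from the pigs named in the study's methods. Genes were kept where 1 or more groups had over 10 CPM in each sample (11633 of 31907) and fitted in 1 model of 5 groups with edgeR 4.0.16 (R 4.3.3, TMM, quasi-likelihood, robust), as counts, where the study's methods name limma-voom. Benjamini-Hochberg adjustment ran over all tested genes. CPM are counts scaled to the reads on tested genes and by TMM factors (0.826 to 1.16), and log2 CPM have a prior count of 2. No sample was a copy of another (chi-square per degree of freedom of 20.5 or more for replicate pairs). Same-numbered samples came from the same animal, and pig was fitted as a block, fixed in edgeR or random in limma-voom (limma 3.58.1, within-pig correlation 0.205). With group means removed, the mean correlation of same-pig samples was 0.0373 for hippocampal microglia and tissue, 0.0568 for macrophages and microglia, 0.109 for cerebellar and frontal cortex, 0.0800 for cerebellar and hippocampal and 0.216 for frontal cortex and hippocampal microglia. Correlations used 100000 permutations (scipy 1.17.1). On simulated counts, 167 of 200 genes changed 8-fold in tissue and 163 of 200 changed 4-fold in 1 region were called. The changed genes were drawn from those with higher mean counts. These shares therefore do not apply to genes with few counts, as most of the 8 genes were in the brain samples.

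The 8 genes and all lists were chosen with earlier results of these data known. Gene identifiers came from the study's supplementary tables and RefSeq symbols, positions and sequences from RefSeq annotation of Sscrofa11.1. Of each list, up to 3 genes with the highest macrophage level were named, together with the 5 genes most like the 8 and the 5 most like CD2. Lists of other cell types are given as sums. BLNK, SH2D1B, MARCO, FABP4, LPL, MSR1, SIGLEC1, F13A1 and CSF3R were also named after their values were seen. Alternatives were limma-voom, DESeq2 1.42.0, other size factors, other filters, only the groups compared, the block, an adjusted p under 0.05 and each sample left out in turn. A gene that the rule on named genes picks and an upstream sequence are not reported here.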

Additional observations from a re-analysis of the deposited data

Results flagged for a closer look

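In 25 combinations of gene and group with 4 to 8 samples, 7 had 1 sample whose gap to its neighbour, divided by the group's range of log2 CPM, passed Dixon's critical value. Chance gives about 1 in 20 for normally spread values. That rate does not apply to samples tied at 0 counts, as in several groups here, so the 7 are not an excess over it. In hippocampal tissue, CD2 was high in pig 12829 (1.64 CPM, 55 counts, gap ratio 0.927), CD8A was low in pig 12821 (0.188 CPM, 6 counts, 0.891), and FCMR had counts in pig 12821 alone (5 counts, 1). In cerebellar microglia, CD8A was at 0 counts in pig 12891 (0.605) and NLRC3 at 0 counts in pig 12758 (0.532). In frontal cortex microglia, NLRC3 was at 0 counts in pig 12758 (0.536) and FCMR was high in pig 12720 (10 counts, 0.578). Pig 12758 thus had 0 counts of NLRC3 in both regions, and 13 counts in its hippocampal microglia. Of the 7 samples, 5 hold at most 6 counts of the gene.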

How the results depend on the processing

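The CD2 difference from tissue kept its direction and its call under all alternatives run. The lower call among the 8 genes against tissue (1) became 2 at an adjusted p under 0.05, 0 with the replicate block for pig in edgeR and 0 with only the groups compared, where NLRC3 no longer passes the filter, and was 1 to 2 with 1 sample left out (2 without the tissue of pig 12821 or 12829). The region count (1) became 3 at an adjusted p under 0.05, 0 in limma-voom, 0 with the replicate block in either tool and 0 with only the groups compared, where CD3D no longer passes the filter, and was 1 to 2 with 1 sample left out.

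The lists higher in macrophages (23, 12, 10 and 4) became 15, 5, 6 and 7 with the replicate block for pig in edgeR and 23, 12, 11 and 4 with it in limma-voom, and 19 cytotoxic and NK cell genes were higher with filterByExpr and 19 with no filter. The blocked edgeR fit rests here on the 2 pigs that gave both macrophages and microglia. With 1 sample left out they were 23, 12 to 14, 10 to 12 and 4 to 7, and 1 B cell gene was lower throughout. The T cell count over regions (4) was 0 in limma-voom, 0 with the replicate block in either tool, 0 with only the groups compared and 0 to 4 with 1 sample left out (0 without the hippocampal microglia of pig 12821 or 12847, 1 without those of pig 12750, 12817, 12829 or 12872, and 2 without those of pig 12758, the cerebellar microglia of pig 12583 or 12821 or the frontal cortex microglia of pig 12599). With only the groups compared, TRAC, ZAP70, TRAT1 and UBASH3A no longer pass the filter and were not tested. The cytotoxic and NK cell count over regions (3) was 4 in limma-voom with or without the block, 8 at an adjusted p under 0.05, 8 in DESeq2, 0 with the replicate block in edgeR, 0 with only the groups compared, 1 without the frontal cortex microglia of pigs 12599 and 12720, and 1 to 5 with 1 sample left out (5 without the frontal cortex microglia of pig 12847, 1 without the frontal cortex microglia of pig 12599, 12720 or 12891, the cerebellar microglia of pig 12847, or the hippocampal microglia of pig 12750, 12758, 12817, 12847 or 12872). Against tissue, the T cell genes lower in microglia (9) became 1 with only the groups compared and 7 to 10 with 1 sample left out. With only the groups compared, most of the 9, at under 10 CPM on average in both groups, no longer pass the filter. Those higher (1) became 2 at an adjusted p under 0.05, 2 with no factors, 2 with filterByExpr, 2 with no filter, 2 without the frontal cortex microglia of pigs 12599 and 12720, 0 in limma-voom, 0 with RLE factors, 0 with only the groups compared and 0 to 2 with 1 sample left out (2 without the hippocampal microglia of pig 12781, 12821 or 12872). The cytotoxic and NK cell genes lower (0) became 1 with filterByExpr, 1 with no filter and 1 with the replicate block in edgeR and were 0 to 1 with 1 sample left out, and those higher (2) became 1 in limma-voom, 1 with only the groups compared and 2 to 3 with 1 sample left out.

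The log2 fold change against tissue changed sign for CD8A in limma-voom (-0.69, and -0.40 with the replicate block), and for FCMR in limma-voom (0.34, and 0.33 with the replicate block) and with no factors (0.078), and ranged from -0.88 to 3.20 for FCMR with 1 sample left out (3.20 without the tissue of pig 12821). The log2 fold changes with 1 sample left out were 5.03 to 5.40 for CD2, 0.04 to 0.50 for CD8A, -3.28 to -2.78 for NLRC3, -4.82 to -2.55 for PVRIG, -4.34 to -3.02 for CD79B, -2.94 to -1.55 for CD3E and -2.75 to -1.27 for CD3D.

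No pair of the 4 genes correlated past an adjusted p of 0.05 under any alternative (0 with 1 pig left out too). The r of CD2 and NLRC3 changed sign with a prior count of 0.5 (0.019), with CPM by library size (0.087), in cerebellar (0.22) and frontal cortex microglia alone (0.58) and over 24 samples (0.21), and ranged from -0.35 to 0.25 with 1 pig left out. That of CD2 and CD3D changed sign with a prior count of 0.5 (-0.063), in rank (-0.10), without the frontal cortex microglia of pigs 12599 and 12720 (-0.19), in hippocampal microglia alone (-0.17) and without the 2 farthest pigs (-0.16), and ranged from -0.26 to 0.14 with 1 pig left out. CD8A and CD3D changed sign with a prior count of 0.5 (-0.048) and in hippocampal microglia alone (-0.79), as did NLRC3 and CD3D in the latter (-0.60). The cause was not tested.

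Counts of 10 or fewer limit all microglia values of CD79B and FCMR, all but 2 of PVRIG and, in the hippocampus, those of CD3D and CD3E. With 3 macrophage samples the spread there is poorly known. The lavage, the brain dissociation and the 2 sorts differ between macrophages and microglia and cannot be told apart from cell type.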
